A study of Homo sapiens with 12 samples.

Results

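The genes of glycolysis and of the hypoxia response were followed as a set of 36 members in 3 roles. These were 16 glycolytic enzymes, 6 transporters and metabolic switches, and 14 genes of the response to the hypoxia-inducible factor HIF. The 14 are called HIF-regulated below, although they include HIF1A, which encodes a subunit of HIF itself. Every probe whose platform symbol is a member was taken. Of the 36 members, 34 had a probe, with 61 probes in all, out of 20046 gene symbols and 30113 named probes on the array. SLC16A3, a lactate transporter, and CA9, a carbonic anhydrase, are not analysed here. The values come from 12 single-colour bead arrays of cells labelled A549, an established human lung tumour line, with RNA taken 24 h after plasmid transfection. Each of 4 groups had 3 arrays: SEMA5A_ICD carried the intracellular domain of SEMA5A, a transmembrane semaphorin, SEMA5A_ECD the extracellular domain, SEMA5A_Full the full-length protein and SEMA5A_Empty a control plasmid. The groups are called ICD, ECD, Full and Empty below. All 12 cultures received a plasmid with the same transfection reagent, so Empty is a transfected control and not an untreated one. The labels name neither the promoter on the plasmids nor the share of cells transfected. Whether the 3 replicates of a group were transfected separately is not stated, so a p-value here reflects array-to-array spread that may be technical.

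Glycolysis splits glucose into pyruvate in the cytosol, and lactate dehydrogenase turns pyruvate into lactate. HIF is a pair of proteins whose alpha subunit, such as that encoded by HIF1A, is hydroxylated by the EGLN enzymes when oxygen is present and then removed through the VHL ubiquitin ligase. When the alpha subunit is kept, HIF binds DNA at a short core, RCGTG, and raises the genes of glucose uptake and glycolysis as well as secreted factors, regulators and mitophagy receptors. Other pathways, among them stress and growth signalling, are also known to act on several of the same genes.

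A detection p under 0.05, taken here as above background, was reached by 18659 to 20366 of the 47323 probes on each array, and arrays of the same group correlated at r = 0.989 to 0.996 across features. The ECD arrays were the brightest, with a 95th percentile of intensity at 9.53 to 9.79 times the background against 8.32 to 9.29 on the other 9 arrays. Full replicates 2 and 3 had the lowest weights when limma estimated array quality, at 0.37 and 0.45 against 2.22 for Full replicate 1, and Full replicate 3 stood apart on the second principal component. The 2 SEMA5A probes were above background on 0 of 12 arrays, so they check no label. Of 10 markers chosen for A549 cells, KRT8, KRT18 and NQO1 were above background on all 12 arrays, ALDH1A1 on 11, KRT7 on 3 and EPCAM on 2. CDH1, KRT19, AKR1B10 and AKR1C1 were above background on 0 arrays, so the labelled line is borne out by only some of its markers. Among markers chosen for leukocytes, CD68 was above background on all 12 arrays, PTPRC on 1 and CD3E on 0. The fibroblast marker COL1A1 was on 4, COL3A1 and PDGFRB on 0, and the 3 endothelial markers on 0. The part of any of this in the results below was not tested.

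Levels are log2 of the background-corrected and quantile-normalised intensity, and a difference is the difference of 2 group means on that scale. A gene was tested when a probe was above background on all 3 arrays of at least 1 group, and it was called when the limma p, adjusted over all 15338 features by the Benjamini-Hochberg method, was under 0.05. Of the 61 member probes 50 entered, and 32 members were tested: all 16 enzymes, 5 transporters and switches and 11 HIF-regulated genes. NDRG1, a stress-induced protein of the N-myc downstream family, was above background on 2 of 12 arrays. EGLN3, a HIF prolyl hydroxylase, was above background on 0. Neither was tested. A member dim in some groups could enter through the group where it was brightest, so the counts below describe tested members. Shares over all features are those of this processing with all 12 arrays, and none is given for other settings.

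Among the HIF-regulated genes, ADM and BHLHE40 rose with all 3 SEMA5A plasmids. On the brightest probe of each gene, 1 of the 16 glycolytic enzymes, HK2, was called, with ECD. That count is near the share of all features called higher with ECD, 6.04%. ADM encodes adrenomedullin, a secreted vasodilator peptide. Its level was 8.86, 8.70 and 8.71 on the Empty arrays, 9.37, 9.41 and 9.40 with ICD, 9.57, 9.48 and 9.61 with ECD, and 9.40, 9.39 and 9.53 with Full. Every array with a construct lay above every Empty array, and the lowest of them, at 9.37, exceeded the highest Empty array at 8.86. The difference from Empty was 0.64 ± 0.09 with ICD (1.56-fold, SE, n = 3 arrays each, limma adjusted p = 0.00098). It was 0.80 ± 0.09 with ECD (1.74-fold, limma adjusted p = 3.9e-05). It was 0.69 ± 0.09 with Full (1.61-fold, limma adjusted p = 0.00046). ADM passed in each of these comparisons under all 23 alternative settings.

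BHLHE40 encodes a basic helix-loop-helix repressor that acts in hypoxia and in the circadian clock. Its level was 7.13, 6.89 and 6.90 with Empty, 7.42, 7.54 and 7.78 with ICD, 8.03, 7.78 and 7.90 with ECD, and 7.53, 7.59 and 7.40 with Full. Again no array with a construct overlapped the Empty arrays, whose highest value was 7.13 against 7.40 for the lowest of the others. The difference from Empty was 0.61 ± 0.11 with ICD (1.52-fold, SE, n = 3, limma adjusted p = 0.0076) and 0.93 ± 0.11 with ECD (1.90-fold, limma adjusted p = 0.00013). With Full it was 0.53 ± 0.11 (1.44-fold, limma adjusted p = 0.038). The call with Full was lost in 11 of 23 alternatives, with adjusted p of up to 0.17. Among these it was lost without Empty replicate 2 (0.17) or 3 (0.14), without Full replicate 1 (0.12), 2 (0.055) or 3 (0.057), without ICD replicate 2 (0.051) and without ECD replicate 3 (0.061).

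**Figure D1:**
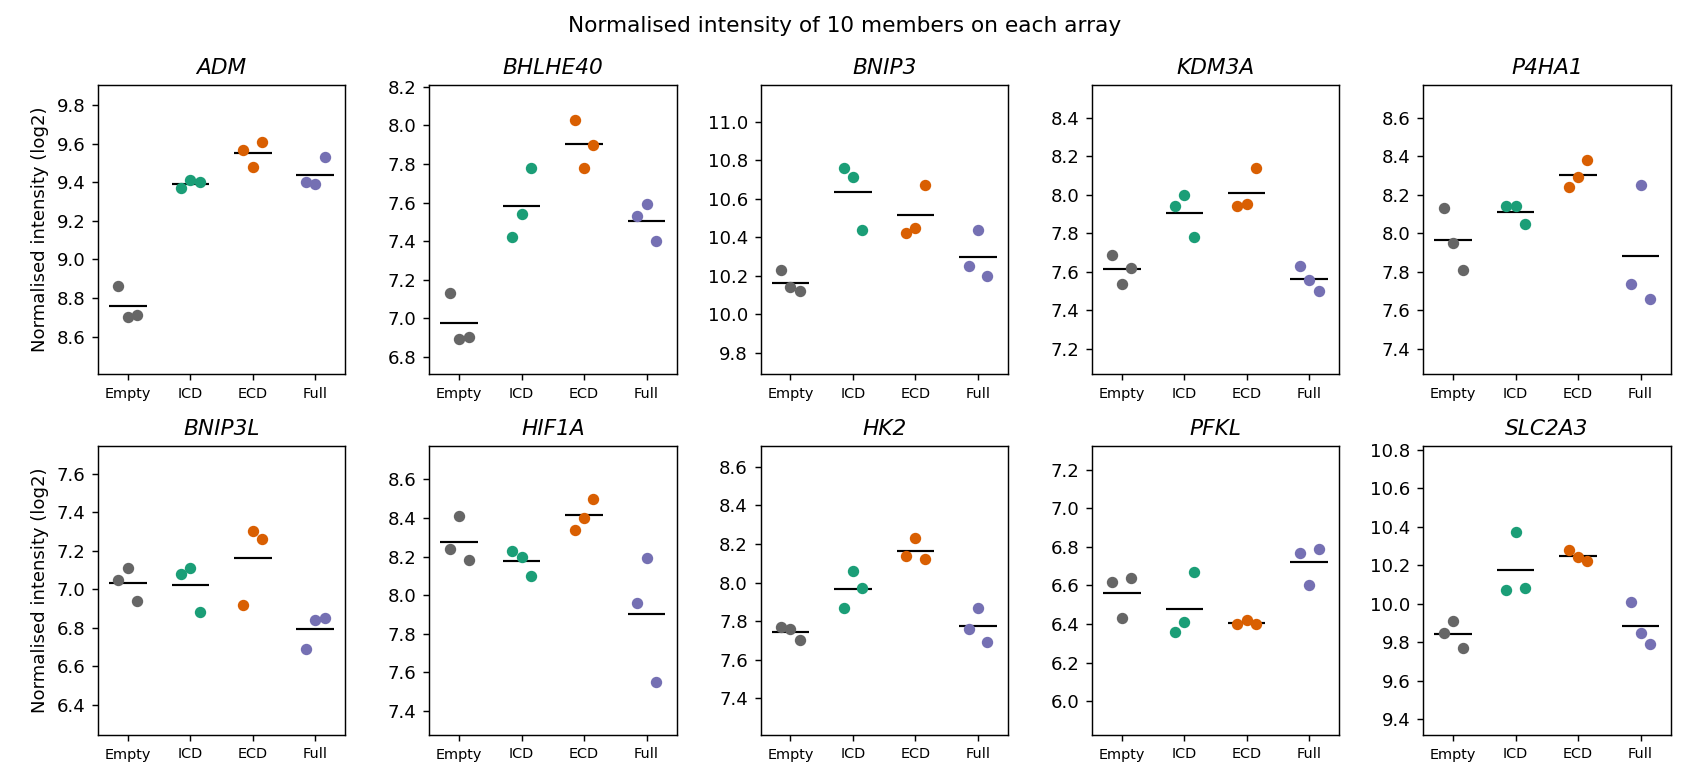
Level (log2 of normalised intensity, vertical axis) of 10 members on each of the 12 arrays, grouped by plasmid on the horizontal axis. Points are arrays, bars are group means, and every panel spans the same log2 range around its own gene. For ADM all 9 arrays with a construct lie at 9.37 or above and the 3 Empty arrays at 8.86 or below.

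The windows upstream of these genes' starts are shown because HIF is known to act through the RCGTG core. The sequences are the 250 bases before the most upstream listed start of each gene, from RefSeq on GRCh38.p14, written 5′ to 3′ on the gene's strand. They are chr11:10304823-10305072 (+) for ADM, chr3:4979187-4979436 (+) for BHLHE40, chr10:131981924-131982173 (-) for BNIP3, chr2:74833877-74834126 (+) for HK2 and chr2:86441121-86441370 (+) for KDM3A. Capitals mark ACGTG or GCGTG on either strand, which reads CACGT or CACGC where the core lies on the other strand.
ADM: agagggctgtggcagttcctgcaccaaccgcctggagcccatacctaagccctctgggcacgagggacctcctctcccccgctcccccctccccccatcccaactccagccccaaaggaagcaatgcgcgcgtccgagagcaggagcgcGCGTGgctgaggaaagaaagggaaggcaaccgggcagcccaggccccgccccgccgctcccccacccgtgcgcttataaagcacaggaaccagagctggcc
BHLHE40: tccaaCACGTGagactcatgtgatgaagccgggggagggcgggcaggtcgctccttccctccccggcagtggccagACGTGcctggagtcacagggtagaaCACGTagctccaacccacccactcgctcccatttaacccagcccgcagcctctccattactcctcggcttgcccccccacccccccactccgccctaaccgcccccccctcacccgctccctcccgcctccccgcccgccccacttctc
BNIP3: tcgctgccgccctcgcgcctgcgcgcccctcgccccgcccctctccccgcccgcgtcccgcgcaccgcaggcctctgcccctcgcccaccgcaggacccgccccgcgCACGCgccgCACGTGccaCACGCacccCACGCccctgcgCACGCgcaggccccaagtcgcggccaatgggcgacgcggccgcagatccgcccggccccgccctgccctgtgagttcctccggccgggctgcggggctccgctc
HK2: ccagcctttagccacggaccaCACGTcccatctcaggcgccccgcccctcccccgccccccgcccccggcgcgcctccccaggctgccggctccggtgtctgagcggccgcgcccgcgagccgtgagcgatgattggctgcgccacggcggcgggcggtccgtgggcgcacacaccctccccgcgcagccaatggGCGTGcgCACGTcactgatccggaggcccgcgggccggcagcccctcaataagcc
KDM3A: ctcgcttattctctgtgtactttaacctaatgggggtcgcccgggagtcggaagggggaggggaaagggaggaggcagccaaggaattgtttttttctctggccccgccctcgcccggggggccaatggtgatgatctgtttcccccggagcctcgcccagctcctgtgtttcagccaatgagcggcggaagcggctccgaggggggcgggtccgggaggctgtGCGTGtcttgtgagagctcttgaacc
The BHLHE40 window held 4 matches of ACGTG counted over both strands, of which 2 are the 2 strands of one CACGTG, and the BNIP3 window held 6 matches of the 2 motifs. Those of HK2, ADM and KDM3A held 3, 1 and 1. Windows were found for 32 of the 36 members, and 21 of these (65.6%) held at least 1 match, against 43.1% of the most upstream windows of all 27305 genes in the table. The motif ACGTG was in 43.8% of the members' windows and 18.6% of all, and GCGTG in 34.4% and 31.9%. By role, 10 of 16 windows of glycolytic enzymes, 2 of 5 of transporters and switches and 9 of 11 of HIF-regulated genes held a match. SLC2A3, VEGFA, BNIP3L and NDRG1 had no entry in the table. These are matches of letters and not measured sites. Among members not called in the comparisons with Empty, GAPDH and LDHA had 2 and 5 matches, and HK1 and TPI1 had 0. Whether matches go with calls was not tested. Each CACGTG counts as 2 matches, also in the BNIP3, GAPDH and LDHA windows. The members were listed as genes of glycolysis and of the HIF response, so their share of matches says nothing about these arrays.

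Taking the comparisons with Empty in turn, the first asks what the intracellular domain alone changed. With ICD, 3 of 32 members were called higher and 0 lower, against 3.33% of all features called higher and 2.68% lower. All 3 were among the 11 HIF-regulated genes: ADM, BHLHE40 and BNIP3. BNIP3 encodes a mitochondrial protein of the BH3-only family that serves as a mitophagy receptor. Its level was 10.23, 10.14 and 10.12 with Empty and 10.76, 10.71 and 10.44 with ICD, so the groups did not overlap. The difference was 0.47 ± 0.11 (1.39-fold, SE, n = 3, limma adjusted p = 0.023). This call was lost without Empty replicate 2 or 3 (0.079 and 0.087) or ICD replicate 1 or 2 (0.084 and 0.074). On the ECD arrays BNIP3 was at 10.42, 10.45 and 10.67, a difference of 0.35 ± 0.11 that missed the threshold (limma adjusted p = 0.054). On the Full arrays it was at 10.25, 10.44 and 10.20, a difference of 0.13 ± 0.11 (limma adjusted p = 0.62).

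With ECD, 5 of 32 members were called higher and 0 lower, against 6.04% and 5.37% of all features. They were ADM, BHLHE40, KDM3A, HK2 and SLC2A3. KDM3A encodes a histone H3 lysine demethylase. Its level was 7.69, 7.54 and 7.62 with Empty, 7.94, 7.95 and 8.14 with ECD, 7.94, 8.00 and 7.78 with ICD and 7.63, 7.56 and 7.50 with Full. The ECD and ICD arrays lay above all Empty arrays, and the Full arrays overlapped with them. The difference was 0.39 ± 0.10 with ECD (1.31-fold, SE, n = 3, limma adjusted p = 0.019), 0.29 ± 0.10 with ICD (limma adjusted p = 0.087) and -0.06 ± 0.10 with Full (limma adjusted p = 0.84). The ECD call was lost without Empty replicate 2 or 3 (0.074 and 0.064) or ECD replicate 3 (0.083).

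HK2, hexokinase 2, phosphorylates glucose in the first step of glycolysis and is the inducible form of the enzyme. Its level was 7.77, 7.76 and 7.70 with Empty, 8.14, 8.23 and 8.12 with ECD, 7.87, 8.06 and 7.97 with ICD and 7.76, 7.87 and 7.69 with Full. The ECD arrays were above all 9 others. The difference from Empty was 0.42 ± 0.09 with ECD (1.34-fold, SE, n = 3, limma adjusted p = 0.0098), and the call held in all 23 alternatives. It was 0.22 ± 0.09 with ICD (limma adjusted p = 0.14) and 0.03 ± 0.09 with Full (limma adjusted p = 0.92). A second HK2 probe was at 6.61, 7.06 and 6.83 with Empty, 7.63, 7.11 and 7.40 with ECD, 7.17, 7.29 and 7.26 with ICD and 6.86, 7.28 and 7.19 with Full. On it ECD replicate 2, at 7.11, lay below all 3 ICD arrays and 2 of the 3 Full arrays. Its difference was 0.55 ± 0.15 with ECD (limma adjusted p = 0.029 over all probes), a call lost in 5 of 23 alternatives. These were the one with no detection filter (0.067) and those without Empty replicate 1 or 3 (0.11 and 0.086) or ECD replicate 1 or 3 (0.12 and 0.083). With Full it differed by 0.28 ± 0.15 (limma adjusted p = 0.39).

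SLC2A3 encodes GLUT3, a high-affinity glucose transporter. Its level was 9.85, 9.91 and 9.77 with Empty, 10.28, 10.24 and 10.22 with ECD, 10.07, 10.37 and 10.08 with ICD and 10.01, 9.85 and 9.79 with Full. All ECD and ICD arrays exceeded all Empty arrays. The difference was 0.40 ± 0.10 with ECD (1.32-fold, SE, n = 3, limma adjusted p = 0.022) and 0.33 ± 0.10 with ICD (limma adjusted p = 0.066). The ECD call was lost without Empty replicate 1 or 3 (0.056 and 0.093) and without ECD replicate 1, 2 or 3 (0.073, 0.067 and 0.056). Of the members called with ECD, 3 were left without Empty replicate 3 or without ECD replicate 3, and 8 members were called without Full replicate 2.

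With Full, 2 of 32 members were called higher, ADM and BHLHE40, and 0 lower, against 0.808% and 0.267% of all features. With median scaling of the arrays in place of quantile normalisation, 9 members were called with ECD and 1, ADM, with Full. That scaling raised the median of all features by 0.11 with ECD, 0.03 with ICD and 0 with Full. The share of all features called under it is not given here.

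**Figure D2:**
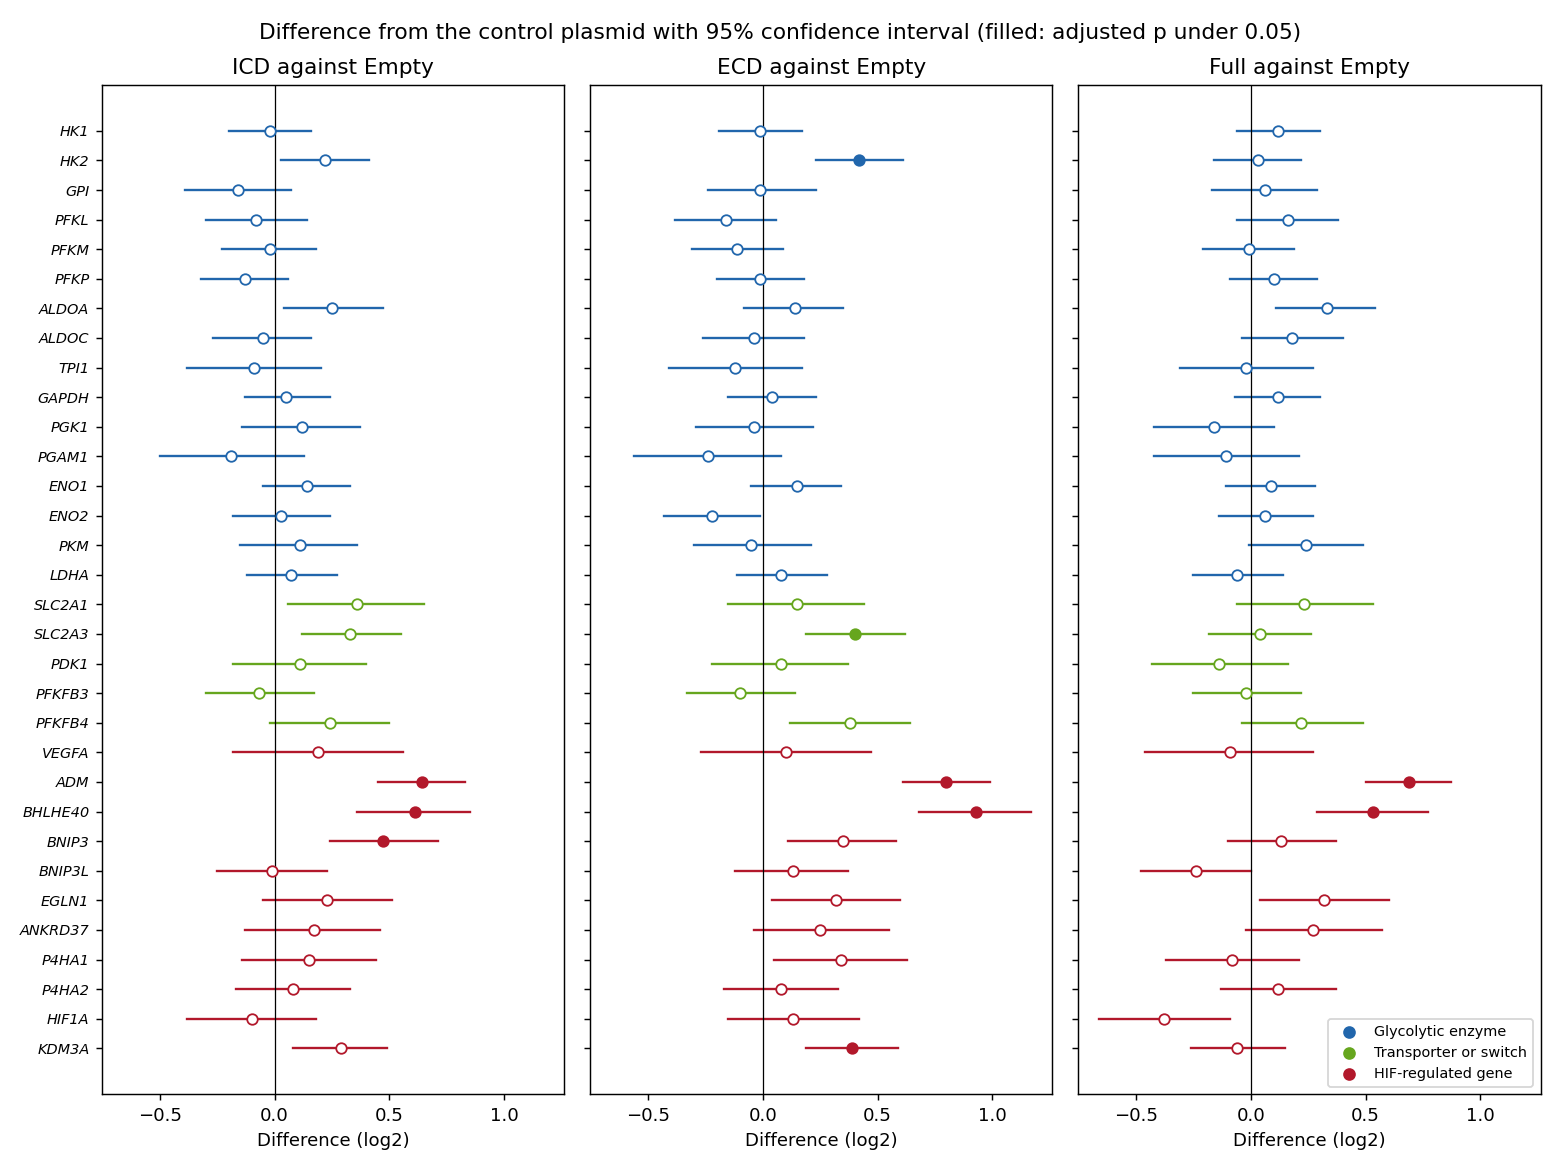
Difference from Empty (log2, horizontal axis) of the 32 tested members with each plasmid, with 95% confidence intervals, coloured by role. Filled points have a limma adjusted p under 0.05. ADM and BHLHE40 are filled in all 3 panels, and HK2 is the one filled glycolytic enzyme, in the ECD panel.

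Of the 16 glycolytic enzymes, 0 were called higher and 0 lower with ICD (2 at an unadjusted p under 0.05), 1 was called higher and 0 lower with ECD, and 0 in either direction with Full (1 at an unadjusted p under 0.05). The shares of all features called higher were 3.33%, 6.04% and 0.808% with ICD, ECD and Full, and 2.68%, 5.37% and 0.267% were called lower. The count of 1 with ECD is near that share. The median difference of the enzymes was 0, -0.03 and 0.07 with ICD, ECD and Full, beside 0.01, -0.01 and 0.01 over all features. For the 15 enzymes other than HK2 the differences ran from -0.19 (PGAM1, phosphoglycerate mutase) to 0.25 (ALDOA, aldolase A) with ICD. They ran from -0.24 (PGAM1) to 0.15 (ENO1, enolase 1) with ECD and from -0.16 (PGK1, phosphoglycerate kinase) to 0.33 (ALDOA) with Full. The 95% confidence intervals of these 15 together spanned -0.50 to 0.47 with ICD, -0.56 to 0.35 with ECD and -0.42 to 0.54 with Full. They hold for the brightest probe of each enzyme and do not bound its other probes. Another ALDOA probe lay outside them, at -0.75 ± 0.15 with ICD and -0.61 ± 0.15 with ECD.

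LDHA, GAPDH and PKM illustrate the spread. LDHA, a lactate dehydrogenase subunit and a known HIF target, was at 13.28, 13.08 and 13.05 with Empty and at 13.22, 13.24 and 13.21 with ECD, a difference of 0.08 ± 0.09 (limma adjusted p = 0.60). GAPDH, which oxidises glyceraldehyde 3-phosphate, differed by 0.05, 0.04 and 0.12 with ICD, ECD and Full. PKM, pyruvate kinase, differed by 0.11, -0.05 and 0.24. The remaining enzymes, HK1, GPI, PFKL, PFKM, PFKP, ALDOC, TPI1 and ENO2, had differences between -0.22 (ENO2 with ECD) and 0.18 (ALDOC with Full).

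Of the transporters and switches, SLC2A1, which encodes GLUT1, was not called. Its differences were 0.36 ± 0.14 with ICD (limma adjusted p = 0.13), 0.15 ± 0.14 with ECD and 0.23 ± 0.14 with Full. PFKFB4, which makes the phosphofructokinase activator fructose 2,6-bisphosphate, differed by 0.24, 0.38 and 0.22, with a limma adjusted p of 0.058 with ECD. PFKFB3, an enzyme of the same family, differed by -0.07, -0.10 and -0.02. PDK1, which inhibits pyruvate dehydrogenase, differed by 0.11, 0.08 and -0.14.

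The median difference of the HIF-regulated list was 0.19, 0.32 and 0.12 in the ICD, ECD and Full comparisons, beside 0.01, -0.01 and 0.01 over all features. With ECD all 11 tested genes were above 0 on their brightest probe, of which 3 were called. With ICD 9 were above 0 and 3 called, and with Full 6 were above 0 and 2 called. Called higher over all features were 3.33%, 6.04% and 0.808% with ICD, ECD and Full. The share of all features above 0 is not given here. Other probes of these genes lay on both sides of 0 with ECD. They gave -0.28 and -0.08 for HIF1A, -0.19 for VEGFA, 0.08 for BNIP3L and 0.35 for P4HA2. Members that were not called in these comparisons included EGLN1, the main HIF prolyl hydroxylase, with differences of 0.23, 0.32 and 0.32 and a lowest limma adjusted p of 0.13. ANKRD37, a small ankyrin-repeat protein, differed by 0.17, 0.25 and 0.27. P4HA2, a collagen prolyl hydroxylase subunit, differed by 0.08, 0.08 and 0.12. VEGFA, the vascular growth factor, was dim, at 4.79 to 5.52 on every array, and differed by 0.19, 0.10 and -0.09 with an SE of 0.17.

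HIF1A itself was not called against Empty. Its level was 8.24, 8.41 and 8.18 with Empty, 8.23, 8.20 and 8.10 with ICD, 8.34, 8.40 and 8.50 with ECD, and 7.96, 8.19 and 7.55 with Full. Full replicate 3 was the lowest of the 12 arrays. The differences were -0.10 ± 0.13, 0.13 ± 0.13 and -0.38 ± 0.13 with ICD, ECD and Full (limma adjusted p = 0.70, 0.56 and 0.21). The HIF protein, which is controlled mostly by its stability, was not measured.

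Several members had more than 1 probe, and most of these lay close together. Of 18 other probes of 13 genes, 16, 16 and 17 lay within 0.3 of the probe standing for the gene in the ICD, ECD and Full comparisons. The exceptions were ALDOA in all 3 comparisons and HIF1A with ICD and ECD. Over all probes, 4 member probes were called with ICD, 7 with ECD and 2 with Full in either direction. Of all 18728 probes, 3.19% were called higher and 3.32% lower with ICD, 5.77% and 5.55% with ECD and 0.769% and 0.304% with Full. For HIF1A the 2 other probes gave -0.53 ± 0.19 and -0.39 ± 0.15 with ICD (limma adjusted p = 0.11 and 0.13).

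For ALDOA, aldolase A, the brighter probe, ILMN_1741148, was at 10.36, 10.33 and 10.47 with Empty and at 10.47, 10.68 and 10.78 with ICD. The probe ILMN_1736700 was at 10.19, 10.66 and 10.50 with Empty, 9.53, 9.87 and 9.70 with ICD, 9.73, 10.02 and 9.77 with ECD and 10.20, 9.99 and 10.49 with Full. On it the ICD and ECD arrays were all below the Empty arrays. The difference was -0.75 ± 0.15 with ICD (SE, n = 3, limma adjusted p = 0.0093), -0.61 ± 0.15 with ECD (limma adjusted p = 0.019) and -0.23 ± 0.15 with Full (limma adjusted p = 0.50), while the first probe gave 0.25, 0.14 and 0.33. Taken as the difference of the 2 probes on the same array, ILMN_1736700 minus ILMN_1741148 was 0.06 ± 0.25 (SD, n = 3) with Empty, -0.95 ± 0.13 with ICD, -0.68 ± 0.12 with ECD and -0.49 ± 0.30 with Full. An exact two-sided permutation test gave p = 0.1 for each plasmid against Empty, the smallest that 3 arrays against 3 allow. The probes were chosen after their values were seen, so this test cannot decide whether they differ. The calls of the lower probe were lost without Empty replicate 2 (0.052 with ICD and 0.079 with ECD), and with ECD also without Empty replicate 3 (0.068) or ECD replicate 1 or 3 (0.072 and 0.066). No direction is therefore given for ALDOA as a gene, and which transcripts the probes read is not given in the sources used here.

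**Figure D3:**
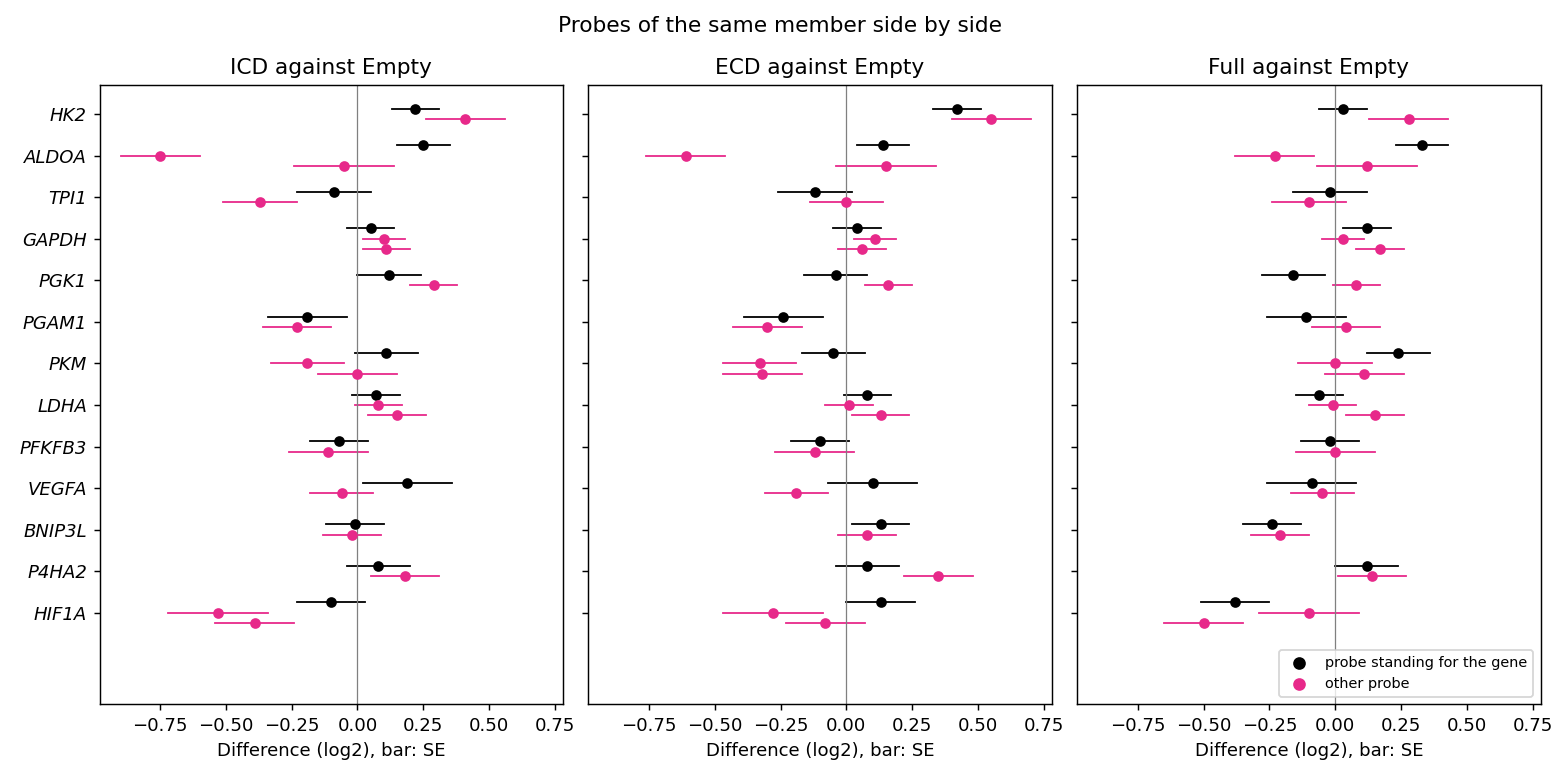
Difference from Empty (log2, horizontal axis) with its SE for every tested probe of the 13 members with more than 1. Black points are the probe standing for the gene and pink points the other probes. In the ICD panel 1 ALDOA probe lies at -0.75 and another at 0.25.

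The constructs were also compared with each other. Between ECD and ICD, 0 of 32 members were called in either direction by limma (3 at an unadjusted p under 0.05), against 1.11% of all features higher and 0.600% lower with ECD. The largest difference of a member was 0.32 (BHLHE40). Between Full and ICD, 0 members were called in either direction by limma (8 at an unadjusted p under 0.05), against 2.01% higher and 2.99% lower, and 4 were called without Full replicate 2.

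Between Full and ECD, 7 members were lower and 1 higher with Full, against 10.2% of all features lower and 8.08% higher. Of the 11 HIF-regulated genes 5 were lower: KDM3A by a difference of -0.45 ± 0.10 (limma adjusted p = 0.0075), HIF1A by -0.51 ± 0.13 (limma adjusted p = 0.017), BHLHE40 by -0.40 ± 0.11 (limma adjusted p = 0.027), BNIP3L by -0.37 ± 0.11 (limma adjusted p = 0.037) and P4HA1 by -0.43 ± 0.14 (limma adjusted p = 0.042). HK2 was lower by a difference of -0.39 ± 0.09 (limma adjusted p = 0.0098) and SLC2A3 by -0.36 ± 0.10 (limma adjusted p = 0.024). Of 23 alternatives, the call was lost in 5 for HIF1A, 4 for BHLHE40, 6 for BNIP3L, 10 for P4HA1 and 5 for SLC2A3. Without Full replicate 3 HIF1A gave -0.34 (limma adjusted p = 0.063). For HIF1A the mean of its 3 probes gave -0.25 (0.12), and the 2 other probes gave 0.18 ± 0.19 and -0.42 ± 0.15 (limma adjusted p = 0.56 and 0.065 over all probes). BNIP3L encodes NIX, a mitophagy receptor related to BNIP3. Its level was 6.92, 7.30 and 7.26 with ECD, 6.69, 6.84 and 6.85 with Full, 7.05, 7.11 and 6.94 with Empty and 7.08, 7.11 and 6.88 with ICD. A second BNIP3L probe gave -0.29 ± 0.11 between Full and ECD (limma adjusted p = 0.091 over all probes). P4HA1, a collagen prolyl hydroxylase subunit, was at 8.24, 8.29 and 8.38 with ECD, 7.74, 8.25 and 7.66 with Full, 8.13, 7.95 and 7.81 with Empty and 8.14, 8.14 and 8.05 with ICD. Full replicate 2 overlapped the ECD arrays for P4HA1, and for BNIP3L no Full array reached the lowest ECD array at 6.92.

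The 1 member higher with Full than with ECD was PFKL, the liver-type phosphofructokinase that commits sugar to glycolysis. Its level was 6.77, 6.60 and 6.79 with Full and 6.40, 6.42 and 6.40 with ECD, against 6.62, 6.43 and 6.64 with Empty and 6.36, 6.41 and 6.67 with ICD. The difference between Full and ECD was 0.31 ± 0.10 (1.24-fold, SE, n = 3, limma adjusted p = 0.049), and 0.10 with median scaling (0.56). This call was lost in 15 of 23 alternatives. The number of members called between Full and ECD depended on single arrays. It was 4, 3 and 2 without ECD replicates 1, 2 and 3 and 4 and 2 without Full replicates 1 and 3, against 8 with all arrays and 9 without Full replicate 2. HK2 and KDM3A were called in every one of the 23 alternatives. For HK2 this holds for its brighter probe. The second HK2 probe gave -0.27 ± 0.15 between Full and ECD (limma adjusted p = 0.22 over all probes).

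The full-length plasmid joins both domains, so its difference from Empty was set against the sum of the differences with ICD and ECD on the log2 scale. A gene raised alike by all 3 plasmids falls short of that sum by about the size of its rise. ADM is such a gene, with differences of 0.64, 0.80 and 0.69 with ICD, ECD and Full. On the brightest probe of each gene, 7 of 32 members fell short of the sum and 0 exceeded it. Of all features 12.3% fell short and 10.4% exceeded it. The departure was -1.0 ± 0.16 for BHLHE40 (SE, n = 3 arrays in each of 4 groups, limma adjusted p = 0.0011), -0.75 ± 0.12 for ADM (limma adjusted p = 0.0013) and -0.73 ± 0.13 for KDM3A (limma adjusted p = 0.0023). It was -0.70 ± 0.14 for SLC2A3 (limma adjusted p = 0.0043), -0.69 ± 0.16 for BNIP3 (limma adjusted p = 0.0067), -0.61 ± 0.13 for HK2 (limma adjusted p = 0.0041) and -0.57 ± 0.19 for P4HA1 (limma adjusted p = 0.043). All 11 HIF-regulated genes were below 0 on their brightest probe, with a median of -0.41 beside 0 over all features, and 5 of them were called. Their other probes gave 0.71 and -0.03 for HIF1A, 0.20 for VEGFA, -0.27 for BNIP3L and -0.39 for P4HA2. The limma adjusted p of these was 0.076 or more over all probes. The 16 enzymes had a median of 0.17, with 11 above 0, and 1, HK2, called. Other enzyme probes were called in both directions over all probes. ALDOA ILMN_1736700 exceeded the sum by 1.14 ± 0.21 (limma adjusted p = 0.0023) and PGAM1 ILMN_1661366 by 0.58 ± 0.18 (limma adjusted p = 0.033). The second HK2 probe fell short, at -0.68 ± 0.21 (limma adjusted p = 0.03). The P4HA1 call was lost in 11 of the 22 alternatives run for this contrast, with adjusted p of up to 0.11, and the other 6 held in all 22.

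**Figure D4:**
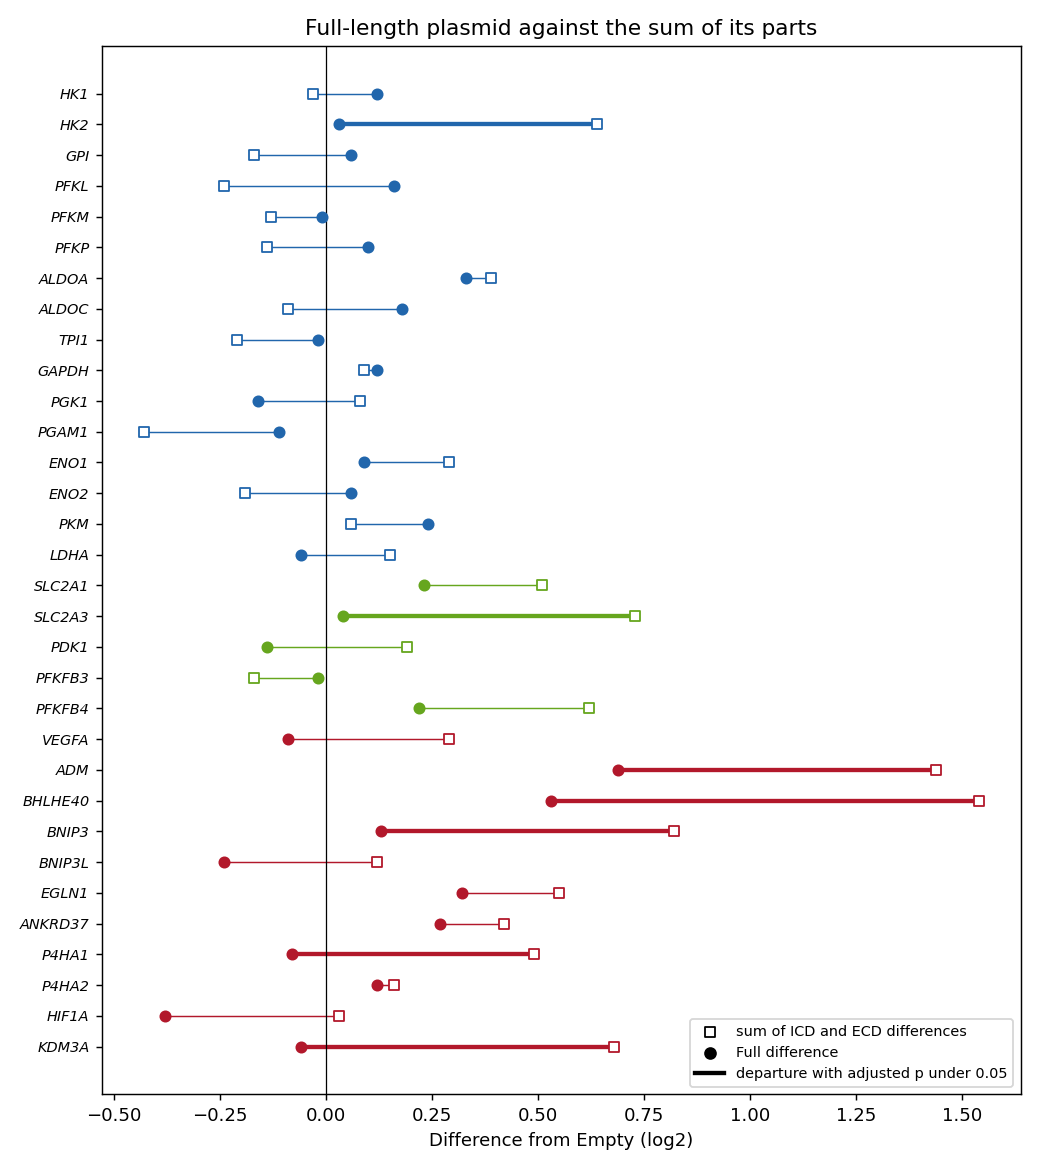
Difference from Empty (log2, horizontal axis) of each tested member with Full (filled circle) beside the sum of its differences with ICD and ECD (open square), coloured by role as enzymes in blue, transporters and switches in green and HIF-regulated genes in red. Thick lines mark departures with a limma adjusted p under 0.05. For BHLHE40 the circle lies to the left of the square.

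Of 109 other genes of these pathways, 103 had a probe and 70 were tested, and they are given by list. Their counts stand beside shares over all features of 3.33% higher and 2.68% lower with ICD, 6.04% and 5.37% with ECD, and 0.808% and 0.267% with Full. In other steps of glucose use, 1 of 18 tested genes was higher and 1 lower with ICD and with ECD, and 0 were called with Full (2 at an unadjusted p under 0.05). With ECD these shares of the list are close to those over all features. DLAT, the acetyltransferase of the pyruvate dehydrogenase complex, was at 7.66, 7.68 and 7.71 with Empty, 8.20, 7.97 and 8.21 with ICD, 8.14, 8.08 and 8.31 with ECD and 7.73, 7.82 and 7.63 with Full. Its difference was 0.44 ± 0.10 with ICD (limma adjusted p = 0.019) and 0.49 ± 0.10 with ECD (limma adjusted p = 0.0069), and 0.04 ± 0.10 with Full. The ICD call was lost without Empty replicate 1, 2 or 3 (0.056, 0.066 and 0.060) or ICD replicate 1 or 3 (0.069 and 0.066). BPGM, which makes 2,3-bisphosphoglycerate, was lower by differences of -0.35 ± 0.10 with ICD and -0.32 ± 0.10 with ECD (limma adjusted p = 0.046 and 0.045), calls that were lost in 17 and 16 of 23 alternatives.

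Among components of the HIF pathway, 0 of 13 were called with ICD (4 at an unadjusted p under 0.05), 3 were higher and 0 lower with ECD (6.04% and 5.37% of all features), and 1 was higher with Full (0.808%). CITED2, which competes with HIF for the coactivator p300, was at 8.81, 8.87 and 8.77 with Empty, 9.39, 9.55 and 9.28 with ECD and 9.13, 9.29 and 9.34 with Full. Its difference was 0.59 ± 0.10 with ECD (limma adjusted p = 0.0018) and 0.44 ± 0.10 with Full (limma adjusted p = 0.043, lost in 15 of 23 alternatives). EP300, which encodes p300, differed by 0.52 ± 0.10 with ECD (limma adjusted p = 0.0050), and by 0.19 without background correction (0.013). CUL2, the cullin of the VHL ubiquitin ligase, was at 7.25, 7.30 and 7.25 with Empty, 7.66, 8.15 and 7.88 with ECD and 7.16, 7.10 and 6.61 with Full. Its difference was 0.63 ± 0.15 with ECD (limma adjusted p = 0.019, lost in 4 of 23 alternatives) and -0.31 ± 0.15 with Full (limma adjusted p = 0.37).

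Of 28 tested further HIF targets, 2 were higher with ICD, 3 with ECD and 0 with Full (4 at an unadjusted p under 0.05), and 0 were lower with any. Over all features 3.33%, 6.04% and 0.808% were higher. The medians were 0.14, 0.18 and 0.04, beside 0.01, -0.01 and 0.01 over all features. ANGPTL4, a secreted inhibitor of lipoprotein lipase, was at 9.69, 9.61 and 9.70 with Empty and at 10.08, 10.13 and 10.13 with ECD, a difference of 0.45 ± 0.09 (limma adjusted p = 0.0059). With ICD ANGPTL4 differed by 0.34 ± 0.09 (limma adjusted p = 0.032, lost in 8 of 23 alternatives), and by 0.09 when its probes were averaged (0.51). PPP1R3C, a glycogen-targeting phosphatase subunit, was higher with ICD by 0.47 ± 0.13 (limma adjusted p = 0.049, lost in 11 of 23 alternatives). STC2, a secreted glycoprotein, and DDIT4, an inhibitor of mTORC1, were higher with ECD by 0.42 ± 0.12 and 0.41 ± 0.12 (limma adjusted p = 0.035 and 0.044, lost in 7 and 10 of 23 alternatives).

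Because BHLHE40 acts in the circadian clock, 8 tested clock genes were read as well. With ICD 1 was higher (3.33% of all features), with ECD 1 was higher and 1 lower (6.04% and 5.37%), and with Full 1 was higher (0.808%). CRY1, a clock repressor, differed by 0.40 ± 0.09 with ICD and 0.31 ± 0.09 with ECD (limma adjusted p = 0.021 and 0.044, lost in 4 and 9 of 23 alternatives). Its relative CRY2 differed by 0.49 ± 0.10 with Full (limma adjusted p = 0.035, lost in 10 of 23). DBP, a transcription factor driven by the clock, was at 6.07, 6.34 and 6.25 with Empty and 5.87, 5.75 and 5.76 with ECD, a difference of -0.43 ± 0.10 (limma adjusted p = 0.013, lost in 5 of 23).

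**Figure D5:**
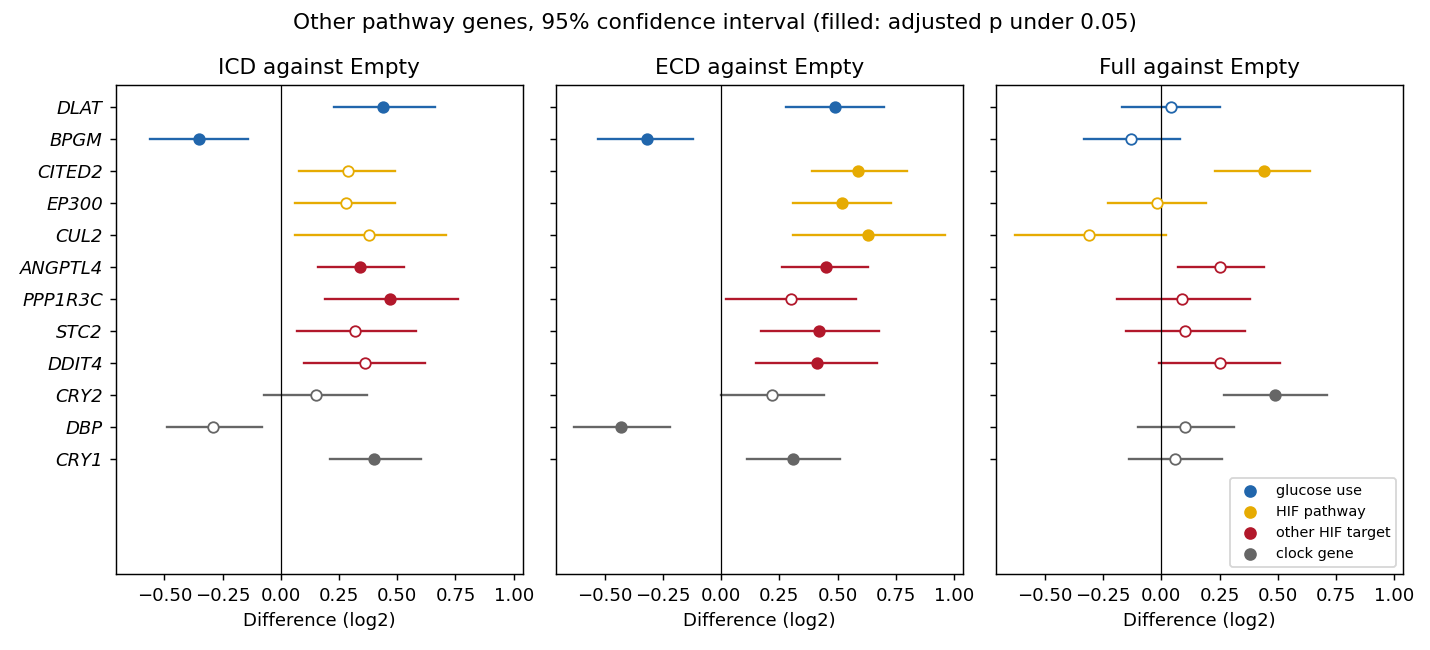
Difference from Empty (log2, horizontal axis) with 95% confidence intervals for 12 other genes of the pathways, coloured by list. Filled points have a limma adjusted p under 0.05. CITED2 is filled with ECD and Full, while DLAT is filled with ICD and ECD.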

How the data were processed

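Expression was measured on 12 single-colour Illumina arrays. The authors deposited a linear intensity and a detection p-value per probe and array, per the file headers, for 47323 probes. The authors also deposited log2 values, which equal quantile normalisation of the log2 intensities within 5e-09. No slide or scan batch was given in the sources used here. Groups and replicate numbers come from the titles.

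limma 3.58.1 (R 4.3.3) normalised the intensities by neqc, with normexp from detection p-values, an offset of 16 and quantiles on the log2 scale, which shrinks the changes of dim probes. Probes with a detection p under 0.05 on every array of some group entered (18728). The brightest entering probe stood for a symbol, leaving 15338 features, 4426 of them unnamed. Contrasts came from 1 fit over 12 arrays with eBayes (two-sided, 8 residual and 6.5 prior degrees of freedom), adjusted over all features, and from a second fit over all entering probes. The number of arrays limits the precision. Symbols come from the platform annotation, with 30074 of 30113 matched to the RefSeq table. Steps were tested on simulated data.

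Members, gene lists and tests were chosen with earlier results of these data known, so none is independent support. Values on every array are given for members called in any comparison between groups and for HIF1A; of the other lists, up to 4 genes with the smallest adjusted p among those called against Empty are named. The 5 printed windows, the second HK2 probe and the ALDOA probes were chosen after values were seen. The 3 comparisons with Empty share its arrays. Array pairs held 0 identical columns, and 0 sample columns were left unused. Replicate numbers showed no strong pairing of the arrays: of 18 same-numbered pairs, 1 had deviations correlated over 0.1 (-0.09 to 0.12). Whether they pair weakly cannot be told from these values. Figures used matplotlib 3.10.9 under Python 3.11.15.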

Additional observations from a re-analysis of the deposited data

Results flagged for a closer look

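For 7 members, read on the brightest probe of each gene, the difference with the full-length plasmid fell short of the sum for its parts. This is by an interaction contrast in limma. The departure on the log2 scale was -0.61 for HK2 (adjusted p = 0.0041), -0.70 for SLC2A3 (0.0043), -0.75 for ADM (0.0013), -1.0 for BHLHE40 (0.0011), -0.69 for BNIP3 (0.0067), -0.57 for P4HA1 (0.043) and -0.73 for KDM3A (0.0023). For ADM and BHLHE40 the Full arrays still lay above all Empty arrays, while for HK2, SLC2A3, BNIP3, P4HA1 and KDM3A the Full and Empty arrays overlapped. Departures were common over the whole array, with 12.3% of features called below the sum and 10.4% above it. A gene raised alike by all 3 plasmids also falls short of the sum, by about the size of its rise. Other probes of ALDOA and PGAM1 exceeded the sum, by 1.14 and 0.58 (limma adjusted p = 0.0023 and 0.033 over all probes). The level of each construct could not be read, and its part in the departures was not tested.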

How the results depend on the processing

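Values are numbers of genes or probes called in either direction by limma. The share of all features called under each setting is not given here. A change in these numbers therefore cannot be set apart from a change in calls over the whole array. Without background correction, which gives the authors' values, members called were 5 with ICD and 4 between Full and ICD, other pathway genes 10 with ICD and 16 with ECD, and member probes 8 with ICD. With an offset of 50, members were 5 with ICD and 3 between Full and ICD, other genes 12 and probes 7 with ICD. With median scaling, members were 9 with ECD and 1 with Full, other genes 2 with ICD, 21 with ECD and 0 with Full, and probes 12 with ECD and 1 with Full. Filtering on detection on all 12 arrays gave 1 member between Full and ICD, as did the mean of a gene's probes. Without a detection filter, members were 1 with Full and 5 between Full and ECD, other genes 3 with ICD and 1 with Full, and probes 1 with Full. With a variance trend and robust fit, other genes were 10 with ICD and 1 with Full, and members 3 between Full and ICD. With array weights, members were 6 with ICD, 8 with ECD and 3 between Full and ICD, other genes 11, 16 and 4 with ICD, ECD and Full, and probes 8 and 11 with ICD and ECD. Fitting only the groups compared gave members of 9 with ECD, 1 with Full and 4 between Full and ECD, other genes of 2, 17 and 0 with ICD, ECD and Full, and probes of 11 with ECD and 1 with Full. With a replicate block, members, other genes and probes called with Full were 1 each, and no strong pairing of same-numbered arrays was seen. Leaving out 1 array at a time gave 2 to 4 members with ICD, 3 to 8 with ECD, 1 to 2 with Full, 0 between ECD and ICD, 2 to 9 between Full and ECD, 0 to 4 between Full and ICD and 6 to 10 departures from the sum. It gave 0 to 6, 4 to 13 and 0 to 2 other genes and 2 to 5, 2 to 10 and 1 to 3 probes with ICD, ECD and Full. The causes were not tested. Without background correction the differences of dim genes shrank, by construction, to 0.25 for PPP1R3C with ICD, 0.24 for STC2 and -0.19 for DBP with ECD, and 0.19 for CRY2 with Full. The alternatives of single genes were run for the calls only, and 0 of these calls changed sign.

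Signal over background limits the dim genes: VEGFA lay at 110.6 to 131.4 intensity units on its brighter probe, NDRG1 and EGLN3 were not tested, and folds of dim probes are understated by the offset. With 3 arrays a group, single enzymes are known only within the intervals given, and these hold for the brightest probe of each. For ALDOA another probe lay outside them with ICD and ECD.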

Other observations

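Receptors of adrenomedullin and the vascular growth factors, with related ligands, were mostly not measurable. Of 10 such genes 3 were tested, and 0 were called against Empty by limma with any plasmid, with 1 at an unadjusted p under 0.05 for each. NRP1, a co-receptor for both semaphorins and vascular growth factors, differed by -0.29 ± 0.11 with ICD, -0.18 ± 0.11 with ECD and -0.43 ± 0.11 with Full (limma, SE, n = 3 per group, adjusted p of 0.14, 0.31 and 0.095). The growth factor VEGFC differed by -0.02, 0.37 and 0.21 and VEGFB by -0.08, -0.20 and -0.10.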
